A study of Mus musculus with 8 samples.

Results

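Embryonic stem (ES) cells of mice lacking AID (labelled aid-/-) were compared with wild type ES cells for DNA methylation at CpG islands. These are 2 of the 8 arrays of the series, 1 array for each group, taken by the tissue and genotype in the labels. They were compared over 12824 regions of chromosomes 1 to 19, each covered by 3 or more probes of a mouse CpG island array. Sonicated DNA was denatured and precipitated with an antibody against 5-methylcytidine (methylated DNA immunoprecipitation), and bound DNA in Cy5 was hybridised with its input in Cy3. The other arrays are mbd4-/- ES cells, ES cells with a Gadd45a knockdown, and the liver and the spleen from mice of each knockout genotype (aid-/-, mbd4-/-; strain C57BL6/J, aged 6 months). They are set beside the comparison and enter none of its calls. The labels give no strain, clone or passage for the ES cells, and wild type liver and spleen were not analysed here.

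AID is a cytidine deaminase of activated B cells, where it drives class switching and somatic hypermutation of antibody genes. It has been proposed to take part in removing DNA methylation by deaminating methylated cytosine, after which a glycosylase such as MBD4 or TDG excises the resulting base. Most CpG islands lie unmethylated at promoters. Imprinted genes differ: at maternal germline differentially methylated regions the allele from the egg carries methylation and the allele from the sperm does not. The protein ZFP57 keeps that mark in the embryo by binding a methylated hexamer. Many germline-specific genes also carry promoter islands that are methylated in somatic cells.

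Region values are means over probes of log2 bound over input, centred on the probe median of each array, and the SD given beside a value is over those probes. It ranks regions by antibody binding within an array and is no methylation percentage. With 1 array a group there is no test and no replicate check, so each difference compares these arrays. A region was called higher or lower when the means differed by 1 or more and no fewer than 75% of the probes went the same way. The highest values differed between the arrays: the plateau, taken as the 98th percentile over all regions, was 4.34 in aid-/- and 3.36 in wild type. Calls, list medians and the leading differences are therefore also given at a common plateau, with the aid-/- array multiplied by 0.775. The share of probes with bound signal well above background was 65.5% in aid-/- and 91.1% in wild type. Probe GC content correlated with the log ratio at −0.18 over probes in aid-/- and at 0.24 in wild type, so low and high GC probes stood differently on these arrays. The arrays were on different slides, so slide and genotype cannot be told apart.

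The promoter sequences below belong to imprinted regions with large, smaller and uncalled differences, with CpG dinucleotides in capitals. The promoters are the 250 bases before the RefSeq start (assembly GRCm38.p6), chosen because 1 or 2 probes of the named region lie within the window; the region values rest on the other probes too. Zrsr1 (chr11:22971755-22972004, plus strand) and Peg3 (chr7:6730420-6730669, minus strand) are the regions with the largest differences, Mcts2 (chr2:152686898-152687147, plus strand) and Nap1l5 (chr6:58907127-58907376, minus strand) are imprinted retrogenes with smaller ones, and Igf2r (chr17:12769707-12769956, minus strand) did not pass the rule.
Zrsr1 promoter: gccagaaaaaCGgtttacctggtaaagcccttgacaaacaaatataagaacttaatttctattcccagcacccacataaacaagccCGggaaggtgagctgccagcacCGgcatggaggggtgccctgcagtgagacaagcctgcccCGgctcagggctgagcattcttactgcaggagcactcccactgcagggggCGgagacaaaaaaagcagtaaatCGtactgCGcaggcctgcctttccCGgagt
Peg3 promoter: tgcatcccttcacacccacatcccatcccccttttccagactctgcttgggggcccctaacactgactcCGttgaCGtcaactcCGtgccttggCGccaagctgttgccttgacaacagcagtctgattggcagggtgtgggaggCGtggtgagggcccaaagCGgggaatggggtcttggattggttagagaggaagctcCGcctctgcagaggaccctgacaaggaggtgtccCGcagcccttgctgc
Mcts2 promoter: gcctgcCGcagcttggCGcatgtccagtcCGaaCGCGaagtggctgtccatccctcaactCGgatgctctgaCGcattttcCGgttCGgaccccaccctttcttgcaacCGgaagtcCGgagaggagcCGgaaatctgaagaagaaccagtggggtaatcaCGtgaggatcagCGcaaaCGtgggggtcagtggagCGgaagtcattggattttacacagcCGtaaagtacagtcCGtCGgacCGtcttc
Nap1l5 promoter: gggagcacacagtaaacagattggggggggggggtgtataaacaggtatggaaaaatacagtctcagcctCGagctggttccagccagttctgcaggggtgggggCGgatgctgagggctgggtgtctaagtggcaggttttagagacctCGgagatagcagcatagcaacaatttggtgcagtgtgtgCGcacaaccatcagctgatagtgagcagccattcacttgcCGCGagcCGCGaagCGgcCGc
Igf2r promoter: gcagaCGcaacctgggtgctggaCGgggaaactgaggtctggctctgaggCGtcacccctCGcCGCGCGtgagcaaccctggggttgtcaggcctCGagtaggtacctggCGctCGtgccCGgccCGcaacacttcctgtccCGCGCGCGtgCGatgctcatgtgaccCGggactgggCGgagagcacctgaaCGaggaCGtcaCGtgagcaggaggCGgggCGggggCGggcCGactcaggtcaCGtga

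The probes printed next are, in each region, the one with the largest difference between the arrays, so their differences are larger than the region means. Each one is the sequence of the array design, whose strand the files do not state, at its mm9 position, again with CpG in capitals. The first 6 lie in imprinted regions, Mycn and Magi1 in regions that were higher in aid-/- outside the imprinted genes, and Wdr67 in a region that was lower.
Peg3 probe, chr7:6682413-6682457: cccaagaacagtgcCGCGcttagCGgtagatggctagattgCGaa
Airn probe, chr17:12934351-12934395: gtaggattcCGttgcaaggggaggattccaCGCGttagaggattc
Grb10 probe, chr11:11925746-11925793: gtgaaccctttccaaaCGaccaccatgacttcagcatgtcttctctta
Kcnq1ot1 probe, chr7:150482193-150482237: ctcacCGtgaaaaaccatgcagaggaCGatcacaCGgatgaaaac
Peg10 probe, chr6:4697854-4697900: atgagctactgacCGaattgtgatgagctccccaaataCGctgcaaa
Inpp5f probe, chr7:135831748-135831792: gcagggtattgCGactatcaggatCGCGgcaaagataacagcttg
Mycn probe, chr12:12943804-12943850: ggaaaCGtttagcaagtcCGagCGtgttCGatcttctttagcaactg
Magi1 probe, chr6:93628651-93628695: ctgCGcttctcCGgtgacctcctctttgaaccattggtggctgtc
Wdr67 probe, chr15:57743868-57743912: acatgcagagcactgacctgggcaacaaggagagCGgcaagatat
The Peg3 probe read 4.44 in aid-/- and −2.59 in wild type, the Airn probe 3.73 and −2.50, and the Grb10 probe 4.62 and −1.17. The Mycn probe read 3.22 and −0.29, and the Magi1 probe 4.44 and 0.49. The Wdr67 probe went the other way, with 0.92 in aid-/- and 3.49 in wild type.

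Across all regions the arrays were alike in rank and unlike in range. Over the 12824 regions the values correlated at r = 0.879, as a description of regions that share a probe set. As measured, 851 regions (6.64%) were higher in aid-/- and 488 (3.81%) were lower, and at a common plateau 327 (2.55%) were higher and 210 (1.64%) lower. Both scales called 285 regions higher and 196 lower. The median difference over all regions was −0.06 as measured and −0.04 at a common plateau. By classes that use each array's own plateau, with high meaning at least 50% and low under 25% of it, 789 of the 802 regions high in wild type were also high in aid-/-. Another 50 regions (0.39%) were low in wild type and high in aid-/-, and 2 (0.0156%) were high in wild type and low in aid-/-.

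**Figure D1:**
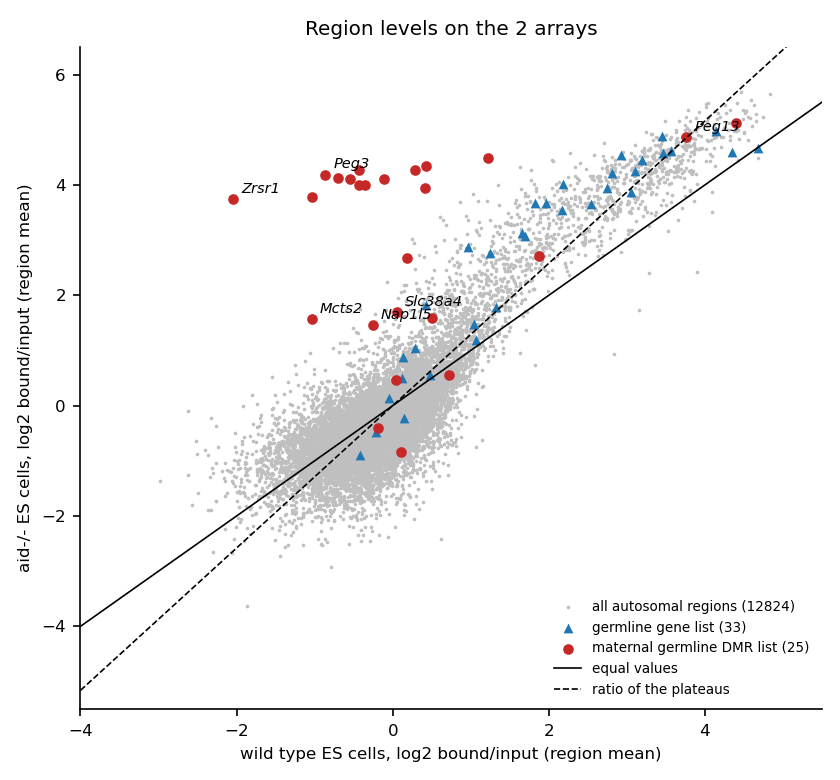
Each point is 1 of the 12824 regions, with its mean log2 bound over input in wild type on the x axis and in aid-/- on the y axis. Red points are the 25 regions of maternally imprinted loci and blue triangles the 33 of germline genes; the solid line marks equal values and the dashed line the ratio of the plateaus of 4.34 and 3.36. Most red points sit far above both lines at wild type values near or below 0, while most triangles lie between the lines or near the dashed one.

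The largest differences lay at imprinted loci methylated in the egg. Of the 22 genes listed, 17 had a region on the array, with 25 regions between them. As measured 19 of the 25 were higher in aid-/- and 0 lower, against 6.64% and 3.81% of all regions, and at a common plateau 17 were higher and 0 lower. Their median difference was 3.26, or 2.26 at a common plateau, beside −0.06 and −0.04 over all regions. Of the 50 regions that were low in wild type and high in aid-/-, 13 came from these loci, and the 12 largest differences among the 50 were all theirs.

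Those 13 regions, at 11 genes, filled the same range as the most methylated regions of the aid-/- array. They lay between 61.6% and 100.02% of its plateau, and in wild type between −60.8% and 12.6%, where a negative share is a value below the array median. All 103 of their 103 probes were higher in aid-/-. Their differences ran from 2.49 to 5.79 as measured and from 1.89 to 4.95 at a common plateau, and all 13 passed the rule on both scales. As the class was defined by these means, they are a description.

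Zrsr1, a paternally expressed retrogene for a splicing factor, had the largest difference as measured (chromosome 11, 22872000 to 22873052 in mm9, 9 probes). The aid-/- probes read from 3.25 to 4.35 and the wild type probes from −4.31 to 0.04, with means of 3.75 ± 0.39 and −2.04 ± 1.39 (SD over probes). The difference was 5.79 ± 1.43, and 4.95 at a common plateau. In wild type only 5 of the 9 probes had bound signal well above background, so the low wild type value is loosely measured. Over 16 other settings of the processing the Zrsr1 difference ran from 2.35 to 6.05, while that of Grb10 never fell below 3.62. So Zrsr1 did not have the largest difference in every setting. On the other ES arrays Zrsr1 read 4.17 in mbd4-/- and −1.18 in the Gadd45a knockdown. Chromosome 11 also stood apart in the input channel, where aid-/- was 0.34 lower than wild type on the log2 scale relative to each array, and its median region difference was 0.21. The part of that shift in the Zrsr1 value was not tested.

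Peg3, whose paternal copy makes a zinc finger protein (chromosome 7, 6682111 to 6683212, 8 probes), had means of 4.19 ± 0.28 in aid-/- and −0.86 ± 1.28 in wild type. The aid-/- probes ran from 3.63 to 4.44 and the wild type probes from −2.59 to 0.75. Its difference was 5.05 ± 1.39, or 4.11 at a common plateau, and its promoter window as printed above holds 8 CpGs. Its cluster neighbours were called on neither scale: Zim1 read 1.03 in aid-/- and 0.71 in wild type, and Zim3, already high, read 4.67 and 3.73.

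At Airn and Kcnq1ot1, which make long noncoding RNAs, the arrays also stood apart. The Airn region, where the RNA that silences Igf2r in cis starts (chromosome 17, 12934260 to 12935460, 10 probes), read 3.79 ± 0.50 in aid-/- and −1.04 ± 0.96 in wild type. The Kcnq1ot1 region, the imprint control of the Kcnq1 and Cdkn1c cluster (chromosome 7, 150481208 to 150482535, 8 probes), read 4.11 ± 0.18 and −0.54 ± 0.59. Its probes ran from 3.74 to 4.35 in aid-/- and from −1.497 to 0.40 in wild type. The regions of Igf2r and Cdkn1c differed much less. Igf2r (chromosome 17, 12961815 to 12962950, 8 probes) read 1.21 ± 0.60 in aid-/- and 0.59 ± 0.45 in wild type, which is 27.8% and 17.7% of the plateaus. In the 4 tissue arrays Igf2r lay between 64.5% and 80.1% of the plateau. Cdkn1c, a cell cycle inhibitor, read 1.44 and 0.67, or 33.3% and 19.8%, with 67.3% to 81.3% in the tissue arrays, and neither region was called. Of the 14 probes of the Cdkn1c region 0 lie in a RefSeq promoter window.

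Grb10, Peg10, Impact, Plagl1 and Nnat followed, with 5 aid-/- means of 4.00 or more. Grb10, an adaptor that restrains growth factor signalling, read 4.27 ± 0.35 in aid-/- and −0.43 ± 0.65 in wild type in the first of its 3 regions (chromosome 11, 11925551 to 11926345, 8 probes). Its other regions were not called, with differences of −0.96 and 0.42. Peg10, a gene derived from a retrotransposon, read 4.00 ± 0.60 and −0.44 ± 1.18, and Plagl1, a zinc finger gene, read 4.10 ± 0.71 and −0.12 ± 0.94. Impact read 4.12 ± 0.17 and −0.71 ± 0.90 over 3 probes, and Nnat, which encodes a membrane protein of developing neurons, read 4.34 and 0.43. The Peg10 neighbour Ppp1r9a (−1.21 and −0.92) and the Nnat host gene Blcap (−0.11 and −0.19) did not differ by the rule.

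Gnas, which encodes the alpha subunit of the stimulatory G protein and has several imprinted promoters, gave 5 regions that did not move as a block. Along chromosome 2 they read 1.58, 3.99, 4.26, 2.67 and −0.40 in aid-/- and 0.50, −0.35, 0.28, 0.18 and −0.18 in wild type. The 3 in the middle, from 174122729 to 174155044, were low in wild type and high in aid-/-, with differences of 4.34, 3.98 and 2.49, or 3.45, 3.02 and 1.89 at a common plateau. The first was higher as measured (1.08) and was not called at a common plateau (0.73), and the last was not called (−0.22).

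**Figure D2:**
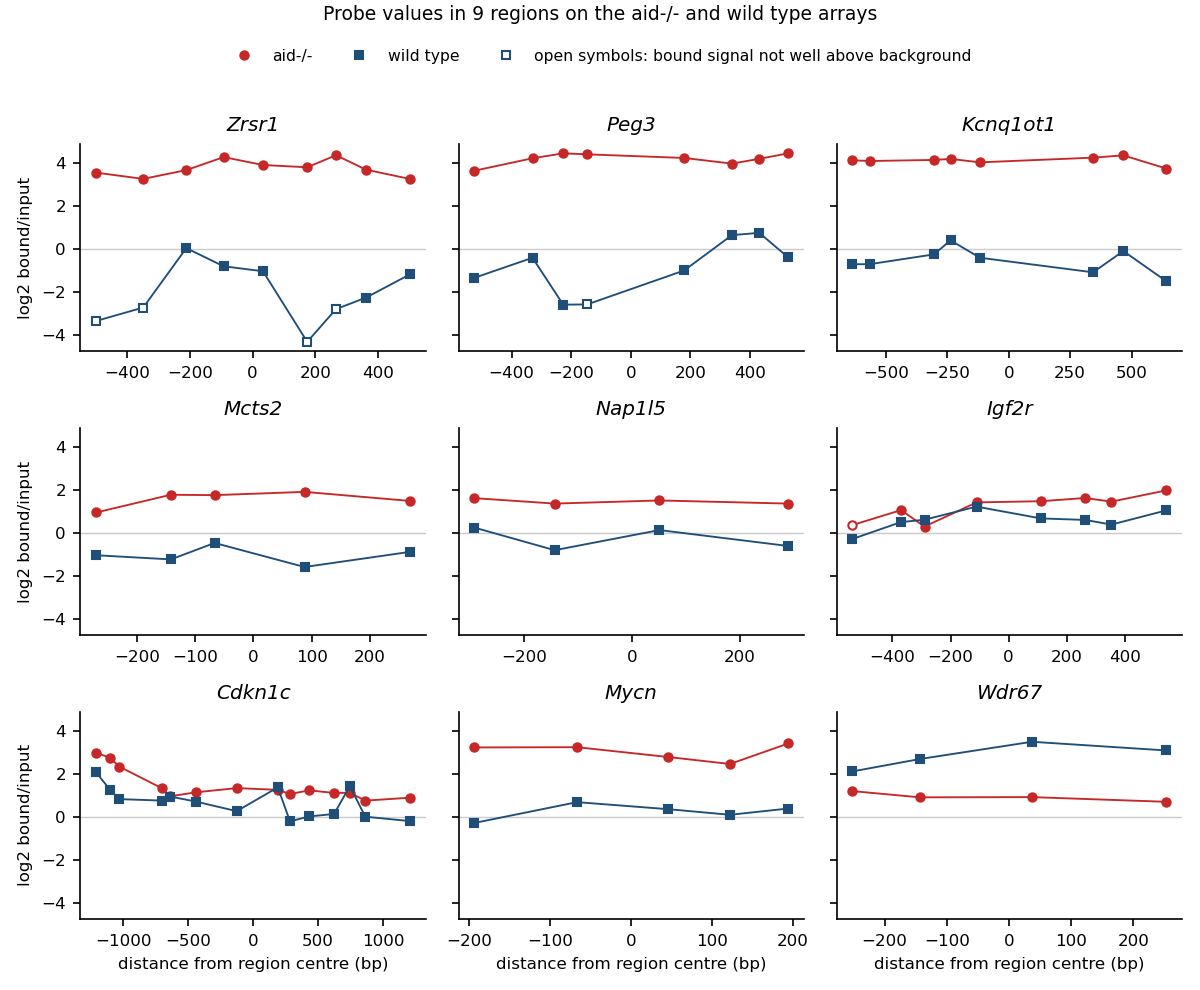
Each panel plots the probes of 1 region by distance from the region's centre in base pairs (x axis) against log2 bound over input (y axis) in aid-/- and wild type ES cells; open symbols mark bound signal not well above background. The arrays separate at every probe of Zrsr1, Peg3, Kcnq1ot1, Mcts2, Nap1l5 and Mycn, lie closer at Igf2r and Cdkn1c, and are reversed at Wdr67.

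Imprinted retrogenes could be set beside the genes that host them in an intron. Mcts2 (chromosome 2, 152512463 to 152513054, 5 probes) read 1.57 ± 0.38 in aid-/- and −1.04 ± 0.41 in wild type, whereas the region of its host H13 read −1.02 and 0.05 and was lower as measured (−1.08) but not at a common plateau (−0.85). Only 2 of the 6 H13 probes had bound signal well above background in aid-/-. Nap1l5 (chromosome 6, 58856617 to 58857246, 4 probes) read 1.46 ± 0.12 and −0.26 ± 0.53, and its host Herc3 read 0.07 and 0.38. With the normexp background correction Nap1l5 was no longer called. The downstream Inpp5f region, at its imprinted internal promoter (chromosome 7, 135831552 to 135831986, 5 probes), read 3.94 ± 0.11 and 0.41 ± 0.45, and the upstream Inpp5f region read 0.55 and 0.73. Commd1, the host of Zrsr1, read 0.32 and −0.62 and was not called. So in these 4 pairs the retrogene or internal promoter was higher in aid-/- by the rule and the host region was not.

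In 4 regions the aid-/- array stopped short of its high range. Mcts2, Nap1l5, Slc38a4 and the first Gnas region lay between 33.7% and 39.1% of the aid-/- plateau and between −30.9% and 14.9% of the wild type plateau, with all 22 of 22 probes higher in aid-/-. As these regions were grouped by those means, the levels and the probe count are a description. The tissue arrays read 62.0% to 111.5% there, above the aid-/- ES array in each case. Slc38a4, an amino acid transporter gene expressed from the paternal allele, read 1.70 ± 0.15 and 0.06 ± 0.43. At a common plateau 3 of the 4 were still higher. The Slc38a4 call was lost with the normexp background and with the deposited values. Mest, a gene active in mesoderm whose region carries the name Mir335 in the array design (chromosome 6, 30688012 to 30688541, 6 probes), was the exception in the other direction. It was already at 36.4% of the plateau in wild type (1.23 ± 0.16) and reached 103.3% in aid-/- (4.48 ± 0.30).

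The remaining maternally imprinted regions were alike on the arrays. Peg13, a noncoding RNA inside Trappc9, was high on both (4.87 and 3.76), and its difference of 1.11 became 0.02 at a common plateau and negative with equal spread (−0.12) and with the deposited values (−1.17). The 2 regions of Cdh15, a muscle cadherin gene, were also high on both (5.13 and 4.39, 2.71 and 1.87). The other Grb10 regions, the upstream Inpp5f region and the last Gnas region were low on both.

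The other arrays gave the imprinted regions a level as well. For the 13 regions low in wild type and high in aid-/-, mbd4-/- ES cells ran from 12.3% to 123.9% of their plateau, with Impact (0.53) the lowest, and the Gadd45a knockdown ran from −42.4% to 21.0%. The 4 tissue arrays together ran from 60.1% to 105.5%. Nap1l5 and Mcts2 read 5.12 and 4.56 in mbd4-/- ES cells, more than in aid-/-, and −0.32 and −0.42 in the Gadd45a knockdown. At Slc38a4 the Gadd45a knockdown read 1.35, above wild type. Thus at these 13 regions the wild type and Gadd45a knockdown ES arrays were low and the aid-/- ES and tissue arrays were high. The mbd4-/- ES array was high too at all of them but Impact, at 56.5% of its plateau or more. The wild type and aid-/- ES levels define the class. Comparisons of mbd4-/- or the knockdown with wild type would share the wild type array used here, so only the levels are given.

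**Figure D3:**
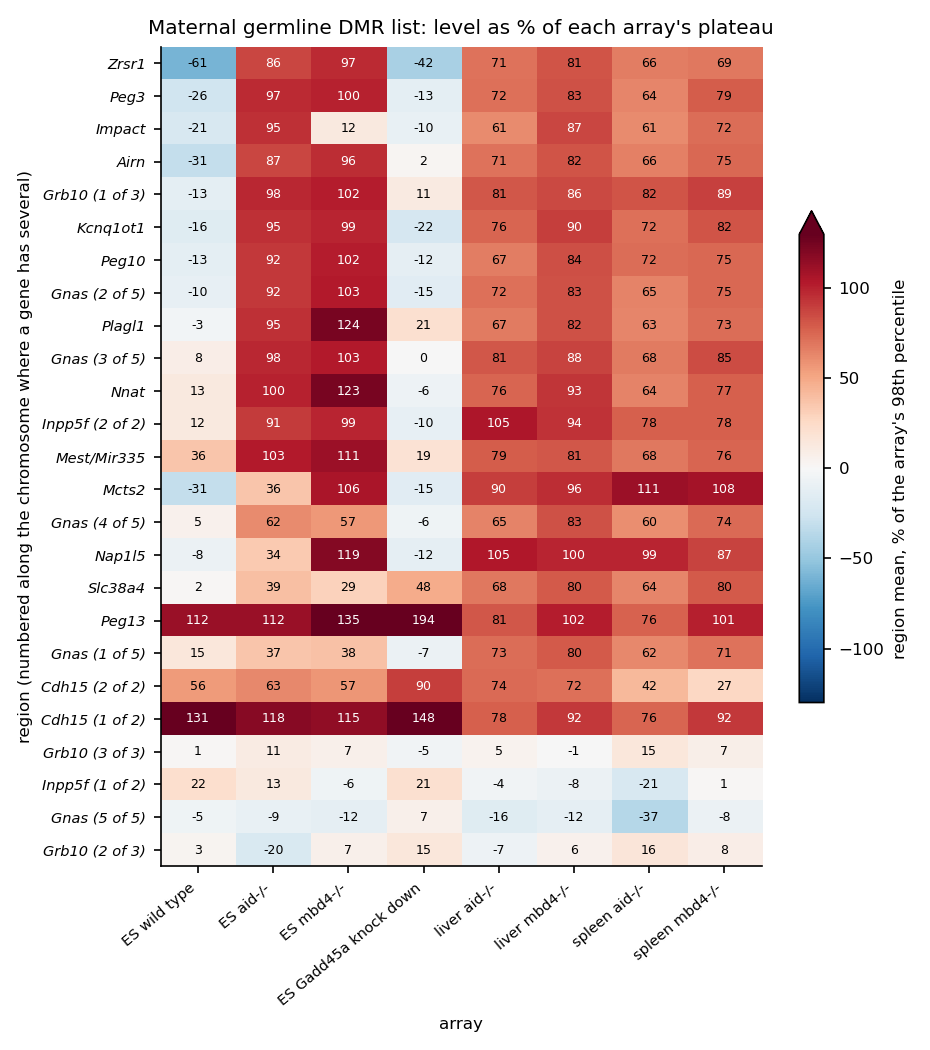
Colour gives the mean log2 bound over input of the 25 maternally imprinted regions (rows) on the 8 arrays (columns), as a percentage of each array's 98th percentile. At the 13 regions that were low in wild type and high in aid-/- the wild type column runs from −60.8% to 12.6% and the aid-/- ES column from 61.6% to 100.02%.

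The letters of the imprinted regions were searched for the hexamer known from ZFP57. TGCCGC, searched on both strands of the probes (reverse GCGGCA) with no other motif, was found in 10 of the 19 imprinted regions called higher (52.6%), in 11 of all 25 (44.0%) and in 1670 of all 12824. Probes tile regions only in part. In RefSeq promoter windows of 250 bases, 8.68% of 32851 held it. Of the promoters printed above, Mcts2 and Nap1l5 hold 1 match each and Zrsr1, Peg3 and Igf2r hold 0. Among the printed probes, those of Peg3, Inpp5f and Wdr67 hold 1 match each, the last in a region that was lower in aid-/-. CpG counts of the printed windows ran from 8 (Zrsr1 and Peg3) over 10 (Nap1l5) and 20 (Mcts2) to 27 (Igf2r), where the median of all windows is 6.

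Regions at genes of imprinted domains methylated in sperm, and of imprinted genes without a germline mark of their own, showed little difference. The first group, called paternal here, had a region at 5 of its 11 listed genes. Its median level on the tissue arrays ran from −5.4% to 22.4% of the plateau. Whether its regions cover the stretches methylated in sperm was not tested. In the paternal group 2 of 7 regions were higher as measured, against 6.64% of all regions, and 0 at a common plateau, with a median difference of 0.18. Dlk1, a Notch ligand homologue expressed from the paternal allele, was high on both arrays in 1 region (4.16 and 2.54; chromosome 12, 110697905 to 110698305). Igf2, a fetal growth factor, read 0.38 and −0.64 in 1 region and −0.48 and −0.14 in the other. Rasgrf1 read −0.08 and −0.25, and Dio3 0.88 and 0.74. Of 39 regions of other imprinted genes 1 was higher (Begain, 3.63 and 2.48) and 2 were lower (H13, and Trappc9 at −0.72 and 0.33), against 6.64% and 3.81% of all regions. None of the 39 was called at a common plateau (0 regions), and their median difference was −0.04 as measured.

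Germline genes were higher in aid-/- as measured and for the most part were not called at a common plateau. Of 33 regions, 17 (51.5%) were higher and 0 lower as measured, against 6.64% and 3.81% of all regions, with a median difference of 1.12. With a common plateau 2 (6.06%) were higher and 1 lower, against 2.55% and 1.64%, with a median of 0.27. High values were found at 21 of the 33 regions in aid-/-, 18 in wild type, 22 in mbd4-/- ES cells and 15 in the Gadd45a knockdown. The regions higher on both scales were Hsf5, a heat shock factor gene of spermatocytes (2.88 and 0.96; chromosome 11, 87430388 to 87431532), and Piwil2, which binds piRNAs (3.67 and 1.82). Tdrd1, a piRNA pathway gene (4.02 and 2.18), and Sycp1, of the synaptonemal complex (4.55 and 2.93), differed by 1.84 and 1.62 as measured and by 0.94 and 0.60 at a common plateau. Mov10l1, a piRNA helicase gene, read 4.89 and 3.45. Dazl, an RNA-binding gene of germ cells, read 4.98 and 4.14 and was not called. Dpep3 was the region lower at a common plateau, with 4.67 in aid-/- and 4.68 in wild type as measured.

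Among genes of the pluripotent state 8 of 32 regions were higher and 1 lower as measured, against 6.64% and 3.81% of all regions. On the plateau scale 4 (12.5%) were higher and 0 lower, against 2.55% and 1.64%, and the median differences on these scales were 0.13 and 0.19. Mycn, a Myc family gene of ES cells, had the largest (chromosome 12, 12943804 to 12944237, 5 probes). It read 3.02 with AID absent and 0.25 in wild type, so the difference was 2.77 ± 0.49, or 2.09 at a common plateau. Elsewhere Mycn read 3.02 in mbd4-/- ES cells, 0.91 after Gadd45a knockdown, 2.11 and 1.47 in liver and spleen without AID, and 3.71 and 0.92 in those without Mbd4. Its other regions were low on both arrays, −0.29 and −0.42 at the promoter and −1.64 and −0.96 elsewhere. Esrrb, a nuclear receptor gene of the naive state, differed in the same manner, with 2.24 and −0.08 in 1 region (chromosome 12, 87810864 to 87811528) and −0.58 and −0.62 at its promoter. Sall4 was higher as measured in 3 regions (3.88 and 2.46, 4.82 and 3.63, 3.74 and 2.63), none at a common plateau. The smaller Sox2 region was called but had 0 of 3 probes with bound signal above background on either array, so it has no measured fold, and the Sox2 region of 20 probes read −0.41 and −0.22. Klf4 (−0.41 and −0.53) and Tcfcp2l1 (−0.19 and −0.05) were low on both. Methylation of a region does not measure expression of its gene.

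Developmental regulators, the largest group, were called about as rarely as regions in general. Of 415 regions of 194 genes, 20 (4.82%) were higher and 6 lower as measured, against 6.64% and 3.81% of all regions, with a median difference of 0.00. With a common plateau 9 (2.17%) were higher and 3 lower, against 2.55% and 1.64%, with a median of 0.02. Hoxc4 (1.91 on both scales), Lhx6 (1.89 and 1.51), Meis2 (1.66 and 1.44) and Tbx5 (1.66 as measured, 0.92 at a common plateau) were among the higher ones. Irx3, a homeobox gene of neural patterning, was the lowest, with −0.63 in aid-/- and 1.14 in wild type over 16 probes. With the normexp background Hoxc4, Lhx6 and Irx3 were no longer called. The clustered protocadherins, cell surface genes of neurons, were mixed. Of 13 regions 4 were higher and 1 lower as measured (6.64% and 3.81% of all regions), and 1 and 3 at a common plateau (2.55% and 1.64%). Pcdha12 read 1.32 and −0.44, and Pcdhgb8 read 1.74 and 3.16.

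Regions of the demethylation pathway itself, to which AID has been proposed to belong, were low on both arrays for the most part. Of 24 regions of 22 genes 1 (4.17%) was higher and 0 lower on either scale, which is near the 6.64% and 2.55% of all regions called higher on these scales. The median differences were −0.26 and −0.14. The region called was at Gadd45b, a stress response gene (0.07 and −1.48), where 1 of 3 probes had bound signal above background in aid-/-; this call too was lost with normexp. Tet1, which oxidises 5-methylcytosine, read −0.55 and −0.35, Ung, which excises uracil from DNA, −0.61 and 0.02, and Gadd45a −1.43 and −0.65. Among 17 regions of methylation writers and readers only Mbd3, a subunit of the NuRD complex, was called (3.103 and 1.36). Dnmt1, Dnmt3b, Zfp57, Trim28 and Uhrf1 differed by −0.51, −0.07, 0.31, −0.08 and −0.27.

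Markers of other cell types that an ES culture can hold were set beside these, against 6.64% of all regions higher and 3.81% lower as measured, and 2.55% and 1.64% at a common plateau. Of 13 trophoblast regions 0 were called on either scale, and of 4 liver regions 0. Of 16 fibroblast regions 2 were higher as measured and 0 at a common plateau. Of 20 blood regions 4 were higher and 1 lower as measured, and 1 and 0 at a common plateau, among them Lyl1 (1.23 and 1.17 as differences on the 2 scales) and Runx1 (1.11 and 0.53). Of 42 housekeeping regions 1 was higher and 1 lower as measured and 3 (7.14%) and 0 at a common plateau, with median differences of −0.03 and 0.09.

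Outside the maternally imprinted genes, the regions low in wild type and high in aid-/- had smaller differences. Of the 50 regions low in wild type and high in aid-/-, 37 were outside the maternally imprinted group, with differences from 1.39 to 2.81, and 4 of them, Mbp among them, were not called at a common plateau. Of those 37, 25 were high in mbd4-/- ES cells, 3 in the Gadd45a knockdown and 21 in all 4 tissue arrays, where 1079, 980 and 969 of all 12824 regions were. The 3 in the knockdown are near that background. Of the 37, 1 (2.7%) had a probe in a RefSeq promoter window, against 52.6% of all regions and 79 (27.7%) of the 285 regions higher on both scales. Other regions high in aid-/- seldom had one either. The share was 7.48% of the 789 also high in wild type and 9.6% of the 177 between 25% and 50% of the wild type plateau. In those 2 classes 88.5% and 63.8% were high in all 4 tissue arrays, beside 56.8% of the 37. Magi1, a scaffold gene of cell junctions (chromosome 6, 93628341 to 93629033, 7 probes), read 3.41 and 0.60, beside −0.21 and −0.03 at its promoter region. App, the amyloid precursor gene (chromosome 16, 85080178 to 85080569, 5 probes), read 2.94 and 0.27 in 1 region, 4.95 and 4.51 in another and −0.77 and −0.39 in the last. Dst, a cytoskeletal linker gene, read 3.37 and 0.64. Prickle1, of planar cell polarity, read 3.70 and 1.09, but at 32.4% of the wild type plateau it is not among the 37. In mbd4-/- ES cells Magi1, App, Dst and Prickle1 read 3.03, 2.31, 3.71 and 3.65, and in the Gadd45a knockdown 0.55, 1.69, 0.87 and −0.65. The Magi1 call was lost with the deposited values.

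Other genes outside the imprinted lists also differed, and of these Mypn and Mycn were low in wild type and high in aid-/-. Foxr1 and Dmrtb1 lay at 25.7% and 30.4% of the wild type plateau. Atp2b2 and Zfp467 reached 39.9% and 40.4% of the aid-/- plateau, and Spnb2, Plekhh3 and Cacna1c were low on both arrays. Foxr1, a forkhead gene, read 3.70 in aid-/- and 0.86 in wild type, and Dmrtb1, a regulator of the entry into meiosis, read 3.84 and 1.02. Atp2b2, a plasma membrane calcium pump, read 1.73 and −0.60, and Zfp467, over 12 probes, 1.75 and −0.42. Spnb2, a spectrin gene of the membrane skeleton, read 0.52 and −1.55, Plekhh3 0.95 and −1.06, and Mypn, of the muscle sarcomere, 2.73 and 0.34. At a common plateau the 15 largest differences among gene-named regions outside the imprinted lists, of those with bound signal measured, ran from 1.75 (Cacna1c, a calcium channel gene whose call was lost with normexp) to 2.09 (Mycn), where Zrsr1 had 4.95.

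As measured, few regions that were high in wild type were lower in aid-/-. Of the 488 lower regions 477 were low in wild type and 4 (0.82%) were high, against 6.25% of all regions. At a common plateau 11 of the 210 lower regions (5.24%) were high in wild type, near that share. Wdr67, which encodes a WD repeat protein (chromosome 15, 57743578 to 57744128, 4 probes), read 0.93 ± 0.20 in aid-/- and 2.84 ± 0.59 in wild type. On the other 6 arrays it read 0.08 in mbd4-/- ES cells, −0.15 in the Gadd45a knockdown, 0.17 and −0.11 in liver (aid-/-, then mbd4-/-), and −0.01 and 0.10 in spleen, so wild type ES cells were the only high array. Acss2, an acetate-activating enzyme gene, read 0.75 and 1.83, with −1.54 in mbd4-/- ES cells and −0.66 in the knockdown, and was not called when arrays were centred on their low mode or corrected with normexp. Ptger1, a prostaglandin receptor gene, read 2.43 and 3.90 over 8 probes, and Pcdhgb8 has been given above. Of the 488 lower regions 149 (30.5%) had fewer than 50% of their bound probes above background in aid-/-, against 14.9% of all regions, and the part of dim signal in these calls was not tested.

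Whether a region was called varied with its wild type level and its GC content. As measured, 57.0% of regions at 50 to 75% of the wild type plateau were called higher, and 1.34% of those at −25 to 0%. At a common plateau the shares were 8.75% and 0.893%, with 8.47% below −25% and 0% at 75 to 100% and above 100%. There the share did not rise steadily with level. The wild type value also enters the difference, so level and call are not independent. From the lowest to the highest quintile of GC content (medians of 51.2% and 61.8%), the share called higher went from 13.6% to 2.85% and the share called lower from 0.585% to 8.11%. At a common plateau the share higher went from 7.25% to 0.585% and the share lower from 0.234% to 3.94%. GC content moved with the difference at r = −0.38 over regions. The median GC was 54.3% in the higher regions, 59.7% in the lower ones and 56.7% in all, and the part of GC in the calls was not tested beyond the correction described in the closing section.

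**Figure D4:**
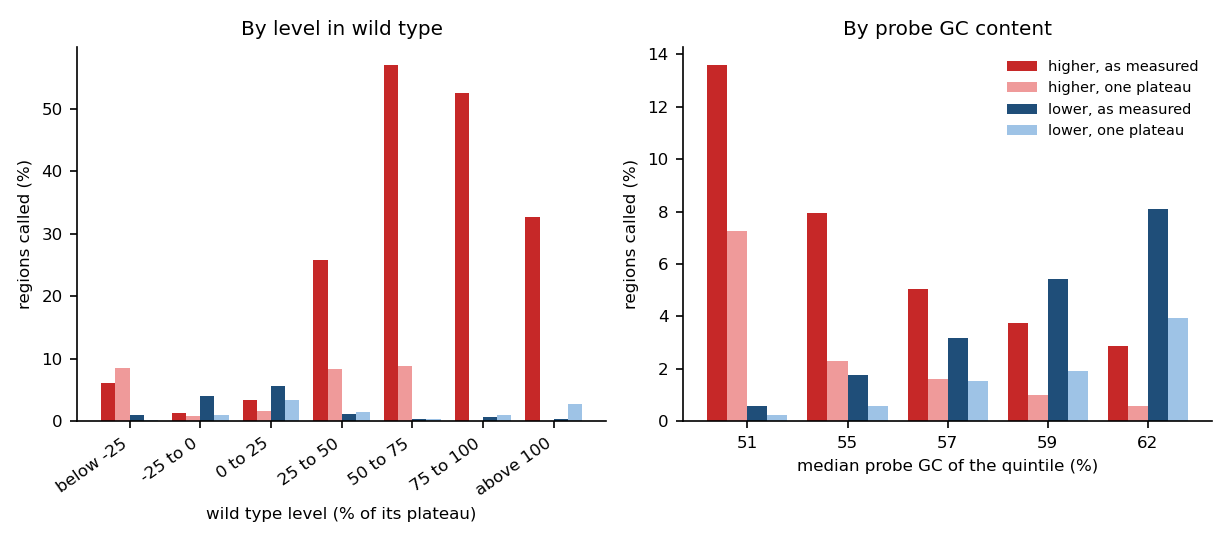
Bars give the percentage of regions called higher or lower in aid-/- (y axis), as measured and at a common plateau, by wild type level as a percentage of its plateau and by quintiles of GC content (x axes). As measured, 57.0% of regions at 50 to 75% of the wild type plateau were called higher, and 8.75% at a common plateau.

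Regions with a promoter probe were 16.6% of those higher as measured, 33.3% of those higher at a common plateau and 52.6% of all regions. Of 6745 regions with a probe in a RefSeq promoter window (250 bases before to 50 after the start), 2.09% were higher and 4.03% lower, and of 6079 without one 11.7% and 3.55%. At a common plateau the higher shares were 1.62% and 3.59%. The classes differ in level: 0.919% of promoter regions and 12.2% of the others were high in wild type. Among regions at 25% or more of the wild type plateau, 22.5% of 218 promoter regions and 40.9% of 1206 others were higher as measured, and 2.75% and 5.72% at a common plateau. Of all 851 higher regions 546 (64.2%) were high in all 4 tissue arrays, against 969 (7.56%) of all regions. Of the same 851, 382 (44.9%) were already high in wild type ES cells. At a common plateau 126 of 327 higher regions (38.5%) were high in all 4 tissue arrays.

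Chromosomes 11 and 19 stood apart from the others in the input channel. The aid-/- input was 0.34 lower than wild type on chromosome 11 and 0.44 higher on chromosome 19, on the log2 scale relative to each array, and between −0.11 and 0.12 elsewhere. The median region difference was 0.21 on chromosome 11 and −0.32 on chromosome 19, opposite in sign to the input. As the input is the denominator of the region value, its shift enters the difference with the opposite sign by definition. As measured, 8.07% of regions on chromosome 11 were higher and 1.77% lower, against 6.64% and 3.81% of all regions. On chromosome 19 5.86% were higher and 6.08% lower. Chromosomes 7, 8 and 10 had larger higher shares than chromosome 11 (8.92%, 8.43% and 8.27%). At a common plateau the shares were 5.77% and 0.444% on chromosome 11 and 1.58% and 2.03% on chromosome 19, against 2.55% and 1.64%. Zrsr1, Grb10 and Hsf5 lie on chromosome 11 and Tdrd1 on chromosome 19, and the part of the input shift in their values was not tested.

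**Figure D5:**
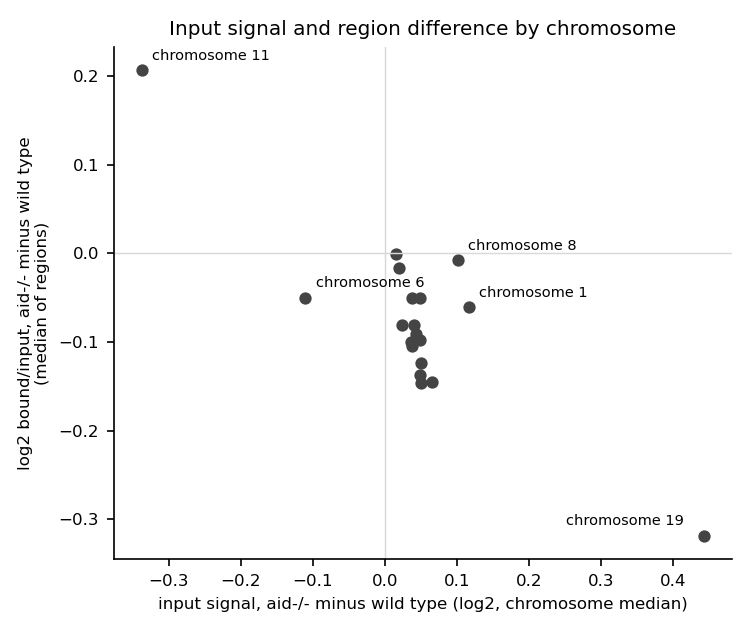
Each point is 1 autosome, with the aid-/- minus wild type shift of the input signal (log2, x axis) against the median difference of its regions (log2 bound over input, y axis). Chromosome 11 lies at −0.34 and 0.21 and chromosome 19 at 0.44 and −0.32, away from the other 17. The input is also the denominator of the y axis value, so the axes are not independent.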

How the data were processed

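Antibody-bound DNA (Cy5) and input (Cy3) were measured on 1 array a group. The deposited scanner files hold intensities from Feature Extraction 10.9.1.1 (version 10.7.3.1 on the arrays of mbd4-/- and Gadd45a knockdown ES cells), with the background subtracted and each dye scaled by a linear factor, with probe positions in mm9, per the file headers. The deposited log10 ratio served to check direction. The deposited value table is a score with a mean of 0 on each array; its medians were −0.18 in aid-/- and −0.03 in wild type, its correlation with the scanner ratio 0.898 and 0.958 gives its direction, and its log base and scale stay unknown. The authors' steps between scanner and table are not given in the sources used here.

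From these, the log2 ratio of the deposited processed signals was centred on each array's probe median. Of 88737 probes (45 to 60 nucleotides), 85850 were autosomal; 127 outliers were removed, as were 6835 whose input failed the background test on any array. Probes up to 500 bp apart were joined, and 12824 of 15103 regions held 3 or more. Gene names and probe sequences are those of the array design: of 11045 names 9942 are current and 1070 synonyms in RefSeq (GRCm38, used for names and promoter sequences only). Without an mm9 annotation, exons and introns were not assigned. A check of the targeted gene is not reported here. The members and gene lists were chosen with earlier results of these data known. The text names regions of the imprinted lists, the 15 gene-named regions outside them with the largest differences at a common plateau (called on both scales, at least 50% of bound probes above background in aid-/-), the 4 lower regions that were high in wild type, and up to 2 called regions per list and direction; others were named after their values were seen. The normexp alternative (offset 50, limma 3.58.1, R 4.3.3) used median spot signals, since the 2 files were used here without mean signals. Other steps ran in Python 3.11.15 with pandas 2.3.3 and numpy 2.4.6, and the calling was tested on simulated data. The number of arrays limits the precision. The median SD over the probes of a region was 0.92 in aid-/-, 0.76 in wild type and 0.81 for their difference.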

Additional observations from a re-analysis of the deposited data

How the results depend on the processing

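The counts of higher and lower regions depended on scale more than the imprinted result did. The count of higher regions, 851 as measured, was 327 at a common plateau, 301 at equal spread, 1388 centred on the mode of the low regions, 237 with the normexp background, 423 with the deposited values, 279 with GC correction and a common plateau, and 327 with 5 or more probes. The count of lower regions, 488 as measured, was 210, 190, 176 and 4 under the first 4 of these, 181 with GC correction and a common plateau, 313 with no filter on input, 250 with 5 or more probes and 258 with all probes in the direction. Higher regions were 63.6% of all called as measured, 88.7% on the low mode, where the median over all regions was 0.20 in place of −0.06, and 98.3%, 53.1%, 78.4% and 75.6% with normexp, the deposited values, no input filter and all probes in the direction. The 50 regions low in wild type and high in aid-/- were 25 with 5 or more probes, and the 2 of the opposite class were 1 on the low mode, 1 with normexp and 8 with the deposited values. The maternally imprinted median of 3.26 was 2.26 at a common plateau, 2.22 at equal spread, 2.35 with normexp and 2.22 with GC correction and a common plateau. Of its 25 regions 15 to 20 were higher in every scaling, background and GC setting, with 17 of 24 in the deposited values, and 1 was lower with GC correction, with the deposited values and with the median of probes; germline regions called higher ran from 1 (equal spread) to 22 (low mode) of 33. Peg13 reversed to −0.12 at equal spread, −1.17 with the deposited values and −0.23 with GC correction and a common plateau, and Pcdha6 to −0.15 with the deposited values. Over the named regions and settings, 1487 results kept their call, 115 were weaker (no longer called), 25 stronger (newly called) and 4 reversed. Reversal was counted only for regions called as measured. Uncalled regions that changed sign, such as Zim3 (0.94 as measured, −0.11 at a common plateau), are among those that kept their call. The cause of these changes was not tested.

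No paired analysis was possible because each group is 1 array and no replicate numbers are shared. The 65.5% of bound probes above background in aid-/- leaves low regions of that array the least well measured.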

Other observations

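Comp, Mbp and Tcf21 were chosen after their values were seen, because they were high in aid-/- ES cells and low in wild type ES cells and in most tissue arrays. Comp, which encodes a cartilage matrix protein (6 probes), read 2.28 in aid-/-, 0.73 in wild type, 2.34 in mbd4-/- ES cells and −0.74 in the Gadd45a knockdown, and between −0.06 and 0.30 in liver and spleen. Mbp, the myelin basic protein gene, read 2.25 and 0.81 in ES cells, with 0.02 in aid-/- spleen, 0.11 in mbd4-/- spleen, 0.75 in aid-/- liver and 0.68 in mbd4-/- liver. Its difference of 1.44 was 0.93 at a common plateau, where it was not called. Tcf21, a mesodermal transcription factor gene, read 2.32 ± 0.88 and 0.50 ± 0.59, with 0.71 in mbd4-/- ES cells and −0.44 in aid-/- liver. Apoe, the apolipoprotein E gene, had a tissue pattern of another kind: 2.24 in aid-/- and 0.47 in wild type ES cells, and 0.51 in aid-/- liver, 2.70 in mbd4-/- liver, 1.84 in aid-/- spleen and 3.79 in mbd4-/- spleen.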
